A study of Mus musculus with 6 samples.

Results

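The 10 genes described here encode secreted growth and angiogenic factors of macrophages. They were chosen by symbol, as Vegfa, Vegfb, Pgf, Pdgfa, Pdgfb, Tgfb1, Hbegf, Igf1, Thbs1 and Fn1, and all 10 were found among the 55291 genes of the count table. RNA was sequenced from bone marrow-derived macrophages (BMDMs), which are primary macrophages grown from bone marrow, of 3 WT and 3 PYK2 KO mice, all C57BL/6, with 1 library per mouse. PYK2 KO stands for a Pyk2 knock-out carried by the whole mouse (PYK2-/-), not by macrophages alone, so marrow cells of every kind lacked the kinase during culture. All cultures were kept for 7 days with 20% L929-conditioned medium as the source of M-CSF, with fresh medium on day 3, and the labels name no further treatment. The age of the mice is not given in the sources used here.

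Macrophages support vessel growth and repair by secreting such factors. VEGF-A drives endothelial growth through its receptor VEGFR2, while VEGF-B and placental growth factor (Pgf) bind VEGFR1. PDGF chains pair into dimers that recruit fibroblasts and pericytes, TGF-beta1 is secreted in a latent form and restrains inflammation, HB-EGF is shed from the membrane and activates the EGF receptor, and IGF-1 is a growth and survival factor for many cells. Thrombospondin-1 (Thbs1) inhibits angiogenesis and activates latent TGF-beta, and fibronectin (Fn1) is an adhesion protein of the matrix. The comparison of WT with PYK2 KO BMDMs asks whether macrophages without PYK2 carry different levels of these transcripts, since the study examined PYK2 in tumor angiogenesis and measured a few angiogenic genes by qPCR.

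The libraries held 2857097 to 3917207 counts, and 9815 genes had enough counts to be tested. Ptk2b, which encodes PYK2, had 737, 701 and 568 counts in WT libraries 1, 5 and 6 and 71, 64 and 69 in PYK2 KO libraries 2, 3 and 4, a log2 fold change of -3.15. Of the 10 macrophage markers, 9 were tested and 0 passed, also with 0 at an unadjusted p-value under 0.05 (edgeR), with Lyz2, Cd68 and Csf1r the most abundant. The fibroblast markers summed to 0.840 to 1.75 CPM (counts after scaling for library size) in WT libraries and to 0.346 to 1.28 CPM in those of PYK2 KO, with Col3a1, Dcn, Lum and Pdgfra at 0. WT library 1 and PYK2 KO library 4 lay at one end of the first principal component of the spread within genotypes, which held 31.1% of that variance. Genotype means were removed before it was computed, so it cannot show how the genotypes lie to each other. In a bulk sample, fewer cells of a type and less RNA per cell cannot be told apart.

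None of the factors passed the test between PYK2 KO and WT BMDMs, and the 2 with the widest differences, Pdgfb and Thbs1, were higher in PYK2 KO. Of the 10 genes, 7 were tested, 0 passed at an adjusted p-value under 0.05, and 2, Pdgfb and Thbs1, had an unadjusted p-value under 0.05, both higher in PYK2 KO (edgeR quasi-likelihood F test, Benjamini-Hochberg adjustment). Across all tested genes 0.255% passed and 6.03% had an unadjusted p-value under 0.05. DESeq2 and limma voom also called 0 of the 7. The median log2 fold change was 0.02 over the 7 genes and 0.0019 over all tested genes. Together the 10 genes took 0.173 to 0.176% of the counts in WT and 0.174 to 0.187% in PYK2 KO libraries.

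**Figure D1:**
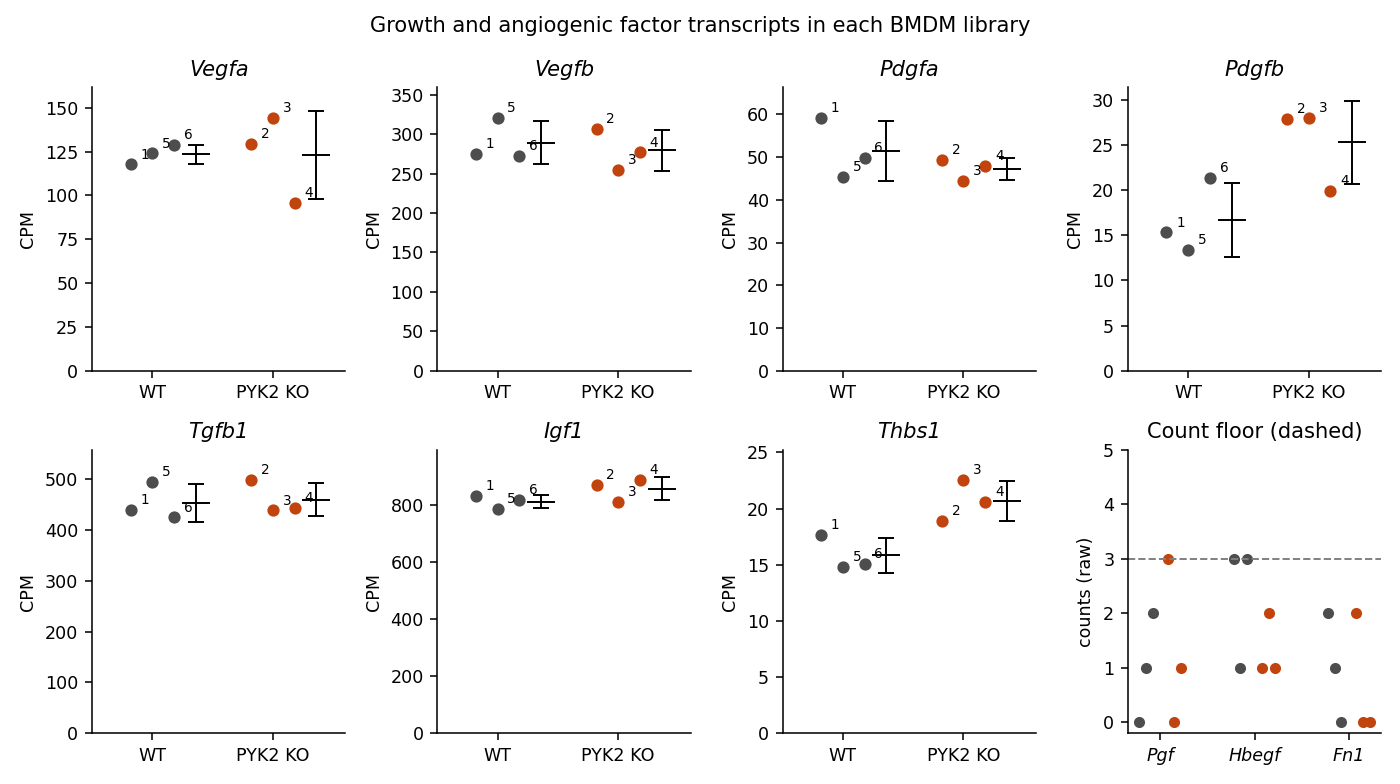
Normalized CPM of the 7 tested genes (vertical axes, from 0) in each WT (grey) and PYK2 KO (orange) library, with library numbers beside the points and the mean ± SD (n = 3 mice) as black bars, and raw counts of the 3 genes that never exceeded 3 counts (dashed line). The genotypes overlap in every tested gene except Thbs1.

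The VEGF family was carried by Vegfa and Vegfb. Vegfa spans 46016993 to 46032369 of chromosome 17 and Vegfb 6982473 to 6987651 of chromosome 19, both minus strand (GENCODE M21, GRCm38, matched by symbol). Each has 1 gene-level count here, so the splice forms of Vegfa, with 8 coding transcripts in that annotation, were not told apart. The 250 bases before the first annotated start of both genes are shown because these 2 genes carried the counts of the VEGF family (RefSeq, GRCm38.p6, 5′ to 3′ on the minus strand, chr17:46032378-46032627 and chr19:6987652-6987901). Capitals mark GC boxes, GGGCGG or CCGCCC on the other strand, and adjacent matches run together.
Vegfa: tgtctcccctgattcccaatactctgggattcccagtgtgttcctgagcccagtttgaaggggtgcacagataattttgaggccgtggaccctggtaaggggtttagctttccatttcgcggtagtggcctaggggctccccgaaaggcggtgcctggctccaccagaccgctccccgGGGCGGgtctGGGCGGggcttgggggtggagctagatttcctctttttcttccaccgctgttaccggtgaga
Vegfb: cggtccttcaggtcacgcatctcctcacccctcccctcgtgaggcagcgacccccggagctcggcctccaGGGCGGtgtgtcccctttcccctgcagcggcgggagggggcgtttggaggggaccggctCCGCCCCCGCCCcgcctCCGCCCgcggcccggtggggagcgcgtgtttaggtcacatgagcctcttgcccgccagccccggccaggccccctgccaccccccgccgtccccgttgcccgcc

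The Vegfa stretch held 2 GC boxes and the Vegfb stretch 4, and 32.7% of the 32851 RefSeq promoter windows of this length held at least 1. The letters ACGTG, the core of the hypoxia response element, were searched on both strands and were in neither stretch, against 16.6% of all windows, and were found 1 time before the second annotated start of Vegfa. AP-1 letters (TGANTCA) and TATA boxes (TATAAA) were in neither, against 6.75% and 12.4% of windows. GC content was 59.2% for Vegfa and 76.4% for Vegfb, with a median of 52.4% over all windows. Of the 10 genes, 6 were matched to a promoter entry that could be used.

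Vegfa was at 118, 124 and 129 CPM in WT libraries 1, 5 and 6 and at 129, 144 and 95.7 CPM in PYK2 KO libraries 2, 3 and 4. The PYK2 KO values enclosed the WT values, with library 3 above and library 4 below all of them. The means were 123 ± 5.47 CPM in WT against 123 ± 25.0 CPM in PYK2 KO (SD, n = 3 mice each). On the log2 scale PYK2 KO differed from WT by -0.0062 (SE, the standard error, 0.12, 95% interval -0.26 to 0.25, adjusted p = 0.999, edgeR), so the data leave room for PYK2 KO levels between 83.5% and 119% of WT. The spread among PYK2 KO libraries, 20.3% of their mean, exceeded the 5.13% that counting error alone gives. Leaving out PYK2 KO library 4 gave 0.15, WT library 6 gave 0.02 and PYK2 KO library 3 gave -0.14 on the log2 scale, so single libraries set its sign. With the first principal component as a covariate it was -0.02.

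Vegfb was at 275, 321 and 272 CPM in WT libraries 1, 5 and 6 and at 307, 255 and 277 CPM in PYK2 KO libraries 2, 3 and 4. The genotypes overlapped, with the highest value in WT library 5 and the lowest in PYK2 KO library 3. PYK2 KO minus WT came to -0.05 on the log2 scale (SE 0.10, 95% interval -0.25 to 0.15, adjusted p = 0.984, edgeR). Leaving out WT library 5 gave 0.03 and leaving out PYK2 KO library 3 gave 0.01. Counts from the 3′ end of transcripts are not scaled by length, so the 2 genes can be set side by side as counts. Vegfa made up 30.0 ± 2.09% of the VEGF family counts (Vegfa, Vegfb and Pgf) in WT and 30.5 ± 5.33% in PYK2 KO libraries (SD, n = 3 mice each, two-sided exact permutation test, p = 1). Pgf had 0, 1 and 2 counts in WT and 3, 0 and 1 in PYK2 KO libraries.

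Of the tested factors, Pdgfb had the widest fold change, which did not pass. Pdgfb spans 79995874 to 80014977 of chromosome 15, minus strand (GENCODE M21, GRCm38). It had 60, 48 and 61 counts in WT libraries 1, 5 and 6 and 87, 81 and 67 in PYK2 KO libraries 2, 3 and 4. Normalized, this was 15.3, 13.4 and 21.4 CPM in WT against 27.9, 28.1 and 20.0 CPM in PYK2 KO BMDMs. PYK2 KO libraries 2 and 3 were above all WT libraries, whereas PYK2 KO library 4 was below WT library 6, so the genotypes overlapped. The spread was 24.8% of the mean in WT and 18.3% in PYK2 KO, where counting error alone gives 13.3% and 11.3%. The means were 16.7 ± 4.15 CPM in WT against 25.3 ± 4.63 CPM in PYK2 KO (SD, n = 3 mice each), which differ by 0.61 on the log2 scale (SE 0.19, 95% interval 0.20 to 1.02). Its unadjusted p-value was 0.00625, rank 113 of 9815, and its adjusted p-value 0.539 (edgeR), so it did not pass, and the two-sided exact permutation test gave p = 0.2, where 0.1 is the smallest that 3 against 3 mice allow.

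The log2 fold change of Pdgfb stayed above 0 in every fit run, from 0.60 to 0.62 under the other normalizations, filters and tests and from 0.48 (without WT library 5) to 0.81 (without WT library 6) with a library left out. Adjusted p-values ran from 0.0789, without a filter on low counts, to 1.00, in DESeq2. Of the markers of platelets, which store PDGF, Gp1bb and Gp9 were at 0, Ppbp had at most 2 counts, and the summed level of that list was 744 to 944 CPM in the WT libraries and 745 to 768 CPM in those of PYK2 KO, mostly from Pf4, with Vwf next. Fibroblast markers, given above, were near 0 in all libraries.

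Pdgfa (chromosome 5, 138976014 to 138997370, minus strand) was at 59.2, 45.3 and 49.8 CPM in WT against 49.4, 44.3 and 48.0 CPM in PYK2 KO libraries. WT library 1 was above all others and the remaining 5 lay close together. Between genotypes the log2 fold change came to -0.13 (SE 0.12, 95% interval -0.39 to 0.13, adjusted p = 0.946, edgeR), and leaving out WT library 1 gave -0.0047. An antisense gene, 6330403L08Rik, overlaps the start of Pdgfa and had 111 counts over the 6 libraries. Whether strand was used in counting is not given in the sources used here.

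The share of Pdgfb in the counts of both chains needs no scaling between libraries. It was 20.5% (95% Wilson interval 16.3 to 25.6%), 22.9% (17.7 to 29.0%) and 30.0% (24.2 to 36.7%) in WT libraries 1, 5 and 6. In PYK2 KO libraries 2, 3 and 4 it was 36.1% (30.3 to 42.3%), 38.8% (32.4 to 45.5%) and 29.4% (23.9 to 35.6%). PYK2 KO libraries 2 and 3 were above every WT library, and PYK2 KO library 4 was just below WT library 6. The means were 24.5 ± 4.96% in WT and 34.7 ± 4.83% in PYK2 KO (SD, n = 3 mice each), 10.3 percentage points apart (two-sided exact permutation test, p = 0.2). The intervals cover counting error only.

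**Figure D2:**
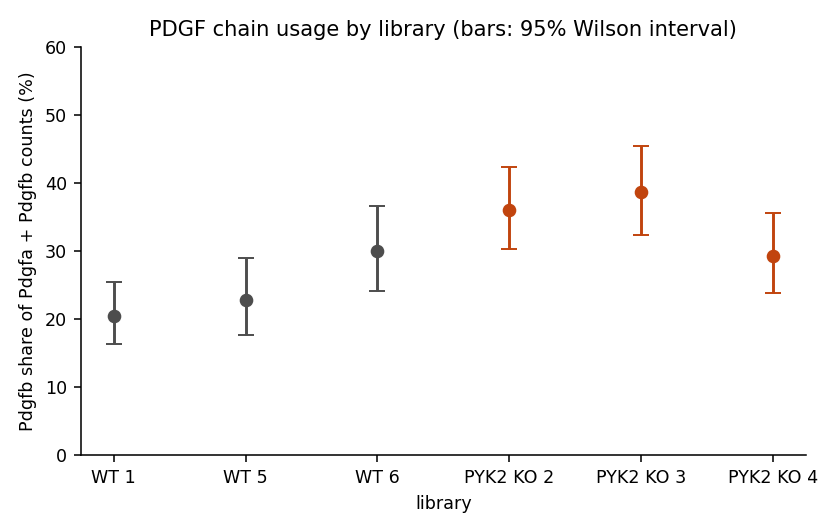
Share of Pdgfb in the summed Pdgfa and Pdgfb counts of each library, in percent (vertical axis), for WT (grey) and PYK2 KO (orange) BMDMs, with 95% Wilson intervals. The shares run from 20.5% in WT library 1 to 38.8% in PYK2 KO library 3, and WT library 6 (30.0%) and PYK2 KO library 4 (29.4%) cross the genotypes.

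Thbs1 (chromosome 2, 118111876 to 118127133, plus strand) was the 1 factor among the 7 tested whose genotypes did not overlap, which held for 10.2% of all tested genes in either direction and for 5.17% with PYK2 KO higher. It had 69, 53 and 43 counts in WT libraries 1, 5 and 6 and 59, 65 and 69 in PYK2 KO libraries 2, 3 and 4. Normalized, these were 17.6, 14.8 and 15.1 CPM in WT against 18.9, 22.5 and 20.6 CPM in PYK2 KO BMDMs. The gap between WT library 1 and PYK2 KO library 2 was small. The means were 15.8 ± 1.54 and 20.7 ± 1.80 CPM (SD, n = 3 mice each), which differ by 0.37 on the log2 scale (SE 0.16, 95% interval 0.03 to 0.72, unadjusted p = 0.0365 and adjusted p = 0.783, edgeR). Counting error alone gives a spread of 13.5% in WT and 12.5% in PYK2 KO at these counts, above the 9.75% and 8.69% observed. The log2 fold change ran from 0.31 (without PYK2 KO library 3) to 0.46 (without WT library 1), with adjusted p-values of at least 0.652 with a library left out.

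Cd36, which encodes one of the receptors for thrombospondin-1, was at 27.1, 15.4 and 10.5 CPM in WT against 18.3, 31.5 and 41.1 CPM in PYK2 KO libraries. The genotypes overlapped, and WT library 1 was above PYK2 KO library 2. Cd36 differed by 0.74 on the log2 scale (SE 0.29, adjusted p = 0.697, edgeR). It passed without a filter on low counts (adjusted p = 0.00226) and with the first principal component as a covariate (adjusted p = 0.0129). Those 2 fits called 159 and 62 genes in all, against 25 in the main fit. Adjusted p-values of Cd36 were 0.138 to 1.00 in the other fits. Leaving out PYK2 KO library 4 gave 0.45 and leaving out WT library 1 gave 1.21 on the log2 scale. Cd47, which encodes another of its receptors, was at 229 ± 13.5 CPM in WT against 220 ± 7.34 CPM in PYK2 KO (SD, n = 3 mice each).

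Igf1 and Tgfb1 were the factors with the most counts, and neither passed. Igf1 (chromosome 10, 87858265 to 87937042, plus strand) was at 830, 784 and 816 CPM in WT libraries 1, 5 and 6 and at 870, 810 and 885 CPM in PYK2 KO libraries 2, 3 and 4. PYK2 KO libraries 2 and 4 were above all WT libraries, and library 3 lay among them. Its log2 fold change came to 0.08 (SE 0.08, 95% interval -0.08 to 0.24, adjusted p = 0.946, edgeR), which leaves room for PYK2 KO levels between 94.4% and 118% of WT. Of the genes for IGF-binding proteins, which hold IGF-1 in complexes, 6 of 8 were at the count floor, and Igfbp4 and Igfbp6 were at 5.50 and 5.17 CPM in WT against 4.95 and 5.10 CPM in PYK2 KO. Igfbp7 had at most 3 counts in any library. Igf1os, antisense to the start of Igf1, had 12 counts over the 6 libraries. Igf1r, the receptor, was at 4.55 ± 2.22 CPM in WT against 5.13 ± 1.94 CPM in PYK2 KO (SD, n = 3 mice each).

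Tgfb1 (chromosome 7, 25687002 to 25705077, plus strand) was at 440, 495 and 424 CPM in WT libraries 1, 5 and 6 and at 498, 438 and 443 CPM in PYK2 KO libraries 2, 3 and 4. WT library 5 and PYK2 KO library 2 were highest, and the others lay between 424 and 443 CPM. Its log2 fold change came to 0.02 (SE 0.09, 95% interval -0.17 to 0.21, adjusted p = 0.994, edgeR), and it turned negative when PYK2 KO library 2 (-0.04), WT library 6 (-0.02) or WT library 1 (-0.0017) was left out. Among proteins that process or hold latent TGF-beta, 5 of 12 genes were tested and 0 passed, with 0 at an unadjusted p-value under 0.05 (edgeR). Nrros, which tethers latent TGF-beta on myeloid cells, was at 490 ± 21.3 CPM in WT against 447 ± 30.3 CPM in PYK2 KO, the convertase Furin at 191 ± 7.07 and 175 ± 7.58 CPM, and Mmp14 at 55.0 ± 3.89 and 55.0 ± 2.40 CPM (SD, n = 3 mice each). Lrrc32, Ltbp4, Itgb6 and Itgb8 had 0 counts in all 6 libraries.

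Of 18 Smads and TGF-beta responsive genes, 12 were tested, 0 passed and 0 had an unadjusted p-value under 0.05 (edgeR), with a median log2 fold change of 0.02. In 4 of the 12, Smad3, Smad4, Ski and Tgfbi, each PYK2 KO value was above each WT value. Of all tested genes, 10.2% did not overlap in either direction and 5.17% did not with PYK2 KO higher. The log2 fold changes of the 4 were 0.41, 0.17, 0.22 and 0.11. That of Smad3 rested on WT library 6, at 3.51 CPM against 7.66 and 6.72 CPM in WT libraries 1 and 5, and was 0.17 without it and 0.63 without WT library 1. Id2 was at 361 ± 44.5 CPM in WT against 320 ± 28.6 CPM in PYK2 KO, Tgfbi at 206 ± 3.82 and 222 ± 6.36 CPM, and Smad4 at 51.8 ± 1.72 and 57.9 ± 4.29 CPM (SD, n = 3 mice each). The widest fold change of the list, -0.93 for Id1, rested on WT library 6, at 17.2 CPM against 3.83 to 6.16 CPM in the other 5 libraries, and was -0.14 without it. Id1 was singled out after its values were seen.

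**Figure D3:**
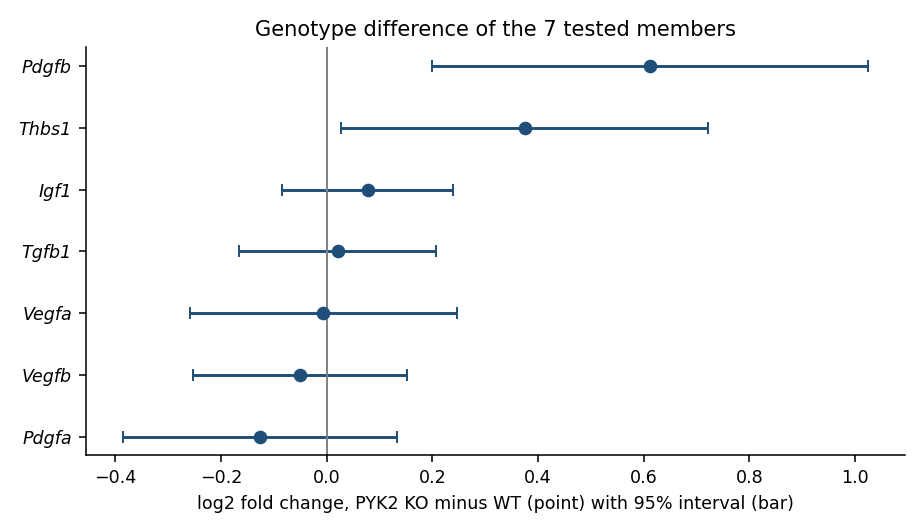
Log2 fold change (PYK2 KO minus WT, horizontal axis) of the 7 tested factors with its 95% interval from edgeR. The intervals of Pdgfb (0.20 to 1.02) and Thbs1 (0.03 to 0.72) lie above 0 before adjustment for all tested genes, and those of the other 5 include 0.

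Pgf, Hbegf and Fn1 were at the count floor, with 3 counts or fewer in every library, where 3 counts correspond to 0.766 to 1.05 CPM. Hbegf had 3, 1 and 3 counts in WT libraries 1, 5 and 6 and 1, 2 and 1 in PYK2 KO libraries 2, 3 and 4. Fn1 had 2, 1 and 0 counts in WT and 2, 0 and 0 in PYK2 KO libraries. Summed over a genotype, counting intervals (exact Poisson, 95%) allowed at most 1.39 CPM of Hbegf, 0.848 CPM of Fn1 and 0.848 CPM of Pgf in WT and at most 1.09, 0.772 and 1.09 CPM in PYK2 KO. No fold change is given for these 3 genes, since a genotype difference was not detectable at this depth. Genes for the machinery of HB-EGF release were present, with Cd9 at 629 ± 46.5 CPM in WT against 660 ± 32.3 CPM in PYK2 KO, the sheddase gene Adam17 at 165 ± 5.16 and 176 ± 16.1 CPM, and Adam9 at 127 ± 3.72 and 122 ± 10.0 CPM (SD, n = 3 mice each). Of the 5 tested genes of that list, 0 passed and 0 had an unadjusted p-value under 0.05 (edgeR).

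Of 24 receptor and co-receptor genes, 16 were tested, 0 passed, and Cd36 and Tgfbr1 had an unadjusted p-value under 0.05 (edgeR), with a median log2 fold change of 0.0018. Lrp1 was at 934 ± 22.7 CPM in WT against 935 ± 67.3 CPM in PYK2 KO, Nrp2, a co-receptor for VEGF, at 367 ± 10.5 and 349 ± 22.4 CPM, and Itgb1 at 327 ± 11.9 and 341 ± 13.6 CPM (SD, n = 3 mice each). Tgfbr1, the type I receptor for TGF-beta, was at 83.0, 87.6 and 74.0 CPM in WT against 76.7, 67.5 and 66.8 CPM in PYK2 KO libraries, or -0.22 on the log2 scale (SE 0.10, adjusted p = 0.823, edgeR). Pdgfra and Erbb4 had 0 counts, and Pdgfrb and Flt1 had 1 count each over the 6 libraries, so the receptors for PDGF were at the floor in these cultures.

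Of 25 other growth and angiogenic factor genes, 5 were tested and 15 were at the count floor, 10 of them with 0 counts. The tested ones were Grn, at 3427 ± 218 CPM in WT against 3241 ± 184 CPM in PYK2 KO, Gdf15 at 650.4 ± 156 and 564 ± 82.2 CPM, Metrnl at 378 ± 12.7 and 379 ± 12.6 CPM, Csf1 at 34.2 ± 6.25 and 40.6 ± 4.56 CPM, and Osm at 11.2 ± 0.964 and 7.66 ± 2.18 CPM (SD, n = 3 mice each). None of the 5 passed, and Osm had an unadjusted p-value under 0.05 (log2 fold change -0.55, adjusted p = 0.783, edgeR). Each of its PYK2 KO values was below each WT value, as in 5.07% of all tested genes, where 10.2% did not overlap in either direction. Among 11 secreted angiogenesis inhibitors, 5 were tested and 0 passed. In that list Thbs1 was above WT, and Pf4 (725 ± 118 CPM in WT against 659 ± 8.17 CPM in PYK2 KO) and Timp2 (527 ± 71.6 and 470 ± 30.1 CPM) were below it without passing (SD, n = 3 mice each). Pf4 was at 860 CPM in WT library 6 and at 647 to 667 CPM in the other 5 libraries, and leaving out WT library 6 gave 0.0037 on the log2 scale. Col18a1, which encodes the precursor of endostatin, had the widest fold change of the list (log2 fold change -0.43, adjusted p = 0.896, edgeR), at 13.5, 16.8 and 24.9 CPM in WT libraries 1, 5 and 6 and 17.0, 13.9 and 9.54 CPM in PYK2 KO libraries 2, 3 and 4, which overlapped. It was -0.17 when WT library 6 and -0.22 when PYK2 KO library 4 was left out. The study also measured angiogenic genes by qPCR, and among these Vegfa had enough counts to be tested here. Il6 had 0 counts, Tymp at most 1, Il1b at most 5 and Plau 6 to 15 per library. Summed over a genotype, Il1b had 8 raw counts in WT and 4 in PYK2 KO, and Plau 28 and 20.

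**Figure D4:**
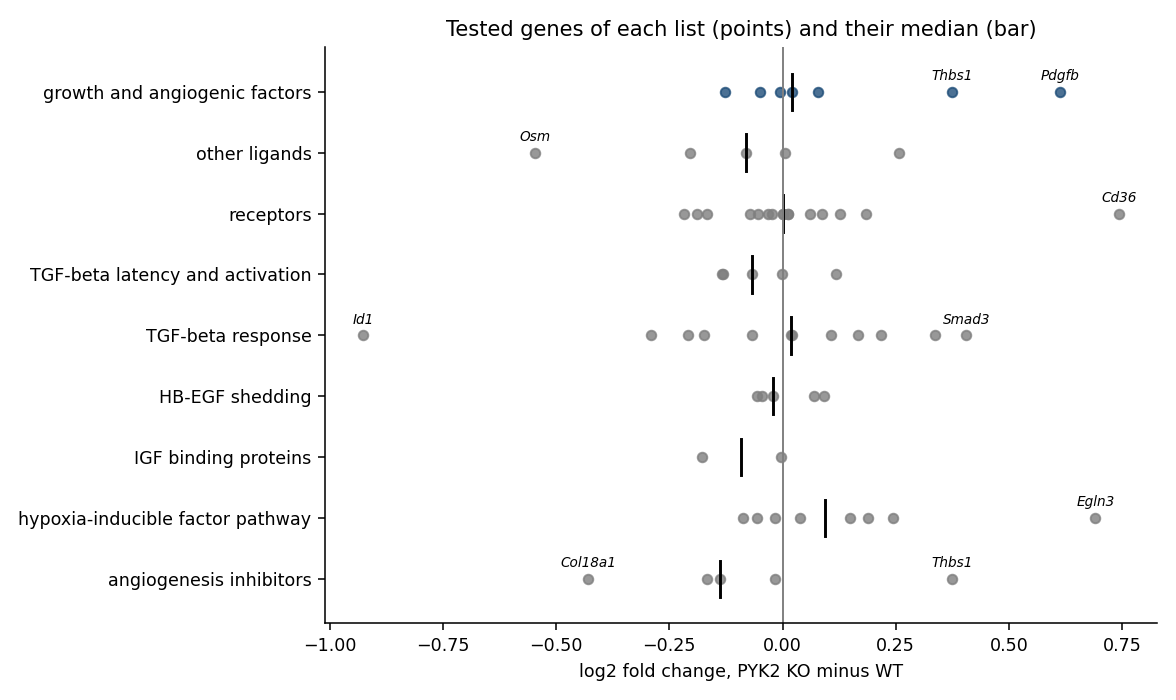
Log2 fold change (PYK2 KO minus WT, horizontal axis) of each tested gene (points) in 9 lists (rows), with the median as a black bar and genes beyond 0.35 in size labelled. None of the points passed at an adjusted p-value under 0.05, and the list medians lie between -0.14 and 0.09.

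Genes of the hypoxia-inducible factor pathway, which drives Vegfa transcription when oxygen is low, were all tested. None of the 8 passed, and Egln3, which encodes a hypoxia-induced prolyl hydroxylase of the pathway, had an unadjusted p-value under 0.05 (log2 fold change 0.69, adjusted p = 0.823, edgeR). Single libraries moved that value, to 0.40 when PYK2 KO library 3, to 0.44 when WT library 1 and to 1.03 when PYK2 KO library 4 was left out. Egln3 was at 5.36, 8.96 and 10.2 CPM in WT libraries 1, 5 and 6 and at 14.8, 18.01 and 6.56 CPM in PYK2 KO libraries 2, 3 and 4. Like Vegfa, Egln3 was highest in PYK2 KO library 3, then in PYK2 KO library 2, and lowest in WT library 1 and PYK2 KO library 4. That likeness was singled out after the values were seen. Egln1 and Hif1a, of the same list, were instead highest in PYK2 KO library 4 (60.2 and 24.1 CPM), where Vegfa was lowest. Egln2 was at 97.7 ± 9.10 CPM in WT against 93.6 ± 5.78 CPM in PYK2 KO, Egln1 at 49.9 ± 2.40 and 55.2 ± 6.05 CPM, and Arnt at 31.1 ± 1.02 and 29.5 ± 3.77 CPM (SD, n = 3 mice each).

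Pdgfb had the widest range among the 7 tested factors, 1.06 on the log2 CPM scale over the 6 libraries. The 5 genes with the most similar profile, by the root mean square difference of log2 CPM after subtracting each gene's mean, were Acod1 (0.09), Gch1 (0.11), E030030I06Rik (0.13), Xrcc2 (0.13) and Bnip3 (0.14). Acod1, which encodes the enzyme that makes itaconate, was at 42.6, 43.7 and 69.0 CPM in WT libraries 1, 5 and 6 and at 78.9, 90.4 and 62.3 CPM in PYK2 KO libraries 2, 3 and 4. Acod1 shared with Pdgfb the crossing of WT library 6 and PYK2 KO library 4, which its choice by profile makes likely. In E030030I06Rik and Xrcc2 the genotypes did not overlap. Genes picked this way cannot serve as a check on Pdgfb. Bnip3, a hypoxia-induced mitophagy gene, was at 23.0, 20.7 and 29.4 CPM in WT against 35.9, 33.9 and 23.5 CPM in PYK2 KO libraries. None of these 5 genes passed (smallest adjusted p = 0.401, for Acod1, edgeR). Acod1 passed without a filter on low counts (adjusted p = 0.000116), with the first principal component as a covariate (adjusted p = 0.0416) and without WT library 6 (adjusted p = 0.0272), with adjusted p-values of 0.142 to 0.995 in the other fits. The fits without a filter and with the covariate called 159 and 62 genes in all, against 25 in the main fit.

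**Figure D5:**
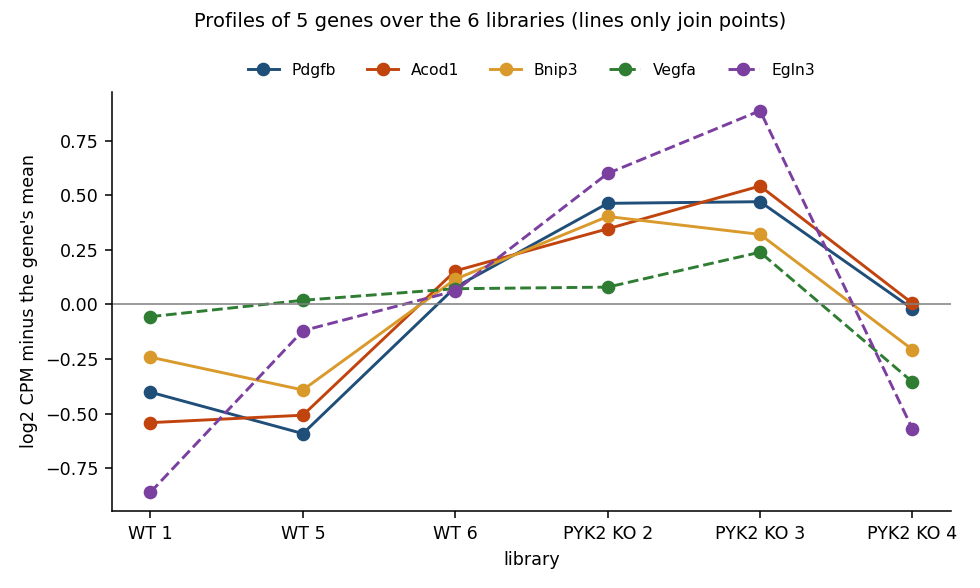
Log2 CPM minus each gene's mean (vertical axis) in the 6 libraries (horizontal axis) for Pdgfb and for Acod1 and Bnip3, among the genes closest to it (solid lines), and for Vegfa and Egln3 (dashed lines). All 5 lines are above 0 in PYK2 KO libraries 2 and 3 and below 0 in WT library 1. Acod1 and Bnip3 were picked for their likeness to Pdgfb, and Egln3 after its values were seen.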

How the data were processed

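Bulk MARS-seq, which reads the 3′ ends of polyadenylated transcripts, was run on BMDM RNA. The authors ran the UTAP pipeline and deposited its raw counts, 1 whole number per gene and library, and the submitters' processing notes name cutadapt, STAR and mm10. Versions, the annotation, strand use and the collapse of molecular identifiers are not given in the sources used here. Columns were assigned to mice by their names, and all 6 were used.

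Genotype was the only term of the model, fitted in R 4.3.3 by edgeR 4.0.16 after filterByExpr and TMM scaling, with quasi-likelihood F tests adjusted by Benjamini-Hochberg over 9815 genes (threshold 0.05). SE is the fold change divided by the root of F. Genes with at most 3 counts in every library were taken as at the floor. Single values were compared by two-sided exact permutation tests. Alternatives were DESeq2 1.42.0, limma 3.58.1, other normalizations and filters, a residual principal component as covariate, and each library left out in turn. The edgeR script was tested on simulated data. The members, lists and alternatives were chosen with earlier results of these data known. The genes named were the 10 factors, Ptk2b, list genes past the threshold and the 3 most abundant of each list (4 for receptors and other ligands), apart from marker genes that are not reported here. Others were named after their values were seen, for an unadjusted p-value under 0.05, a level at the floor or a role beside a factor. Libraries of a genotype differed by a chi-square of at least 2.15 per degree of freedom, so none was a duplicate.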

Additional observations from a re-analysis of the deposited data

How the results depend on the processing

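No paired analysis was run because the labels give no pairing of WT with PYK2 KO mice. The library numbers, 1, 5 and 6 for WT and 2, 3 and 4 for PYK2 KO, do not tell whether mice were paired. None of the 7 tested factors passed in any alternative run (all 10 were fitted without a filter). The number of differentially expressed genes was 159 without a filter, 45 with the likelihood ratio test and 62 with the first residual principal component as a covariate, against 25, and 14 to 34 with a library left out, with 14 when PYK2 KO library 4 and 15 when WT library 5 or PYK2 KO library 2 was removed. For each of these, the cause was not tested. The covariate was computed after genotype means were removed, so passing with it is not an independent check of a genotype difference. Pdgfb, Thbs1, Igf1 and Pdgfa kept their direction in each alternative. Vegfa was above 0 without scaling (0.00020) and with upper-quartile factors (0.0027). With a library left out, Vegfa ran from -0.14 to 0.15, Vegfb from -0.12 to 0.031 and Tgfb1 from -0.041 to 0.089 on the log2 scale.

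Among the other named genes, Lrp1 was below 0 without a filter (-0.0054), with at least 1 CPM in 2 libraries (-0.0011), with limma voom (-0.00094) and with the covariate (-0.00093), as was Metrnl without a filter (-0.0010). Mmp14 and Igfbp6 were above 0 without scaling (0.0056 and 0.0031) and with upper-quartile factors (0.0074 and 0.0050), Mmp14 with the covariate (0.00033) and Igfbp6 with limma voom (0.011). With a library left out, log2 fold changes that crossed 0 ran from -0.33 to 0.0057 for Gdf15, -0.021 to 0.032 for Metrnl, -0.055 to 0.050 for Lrp1, -0.039 to 0.061 for Mmp14, -0.35 to 0.12 for Igfbp4, -0.14 to 0.094 for Igfbp6, -0.13 to 0.0046 for Egln2, -0.21 to 0.0037 for Pf4, -0.069 to 0.033 for Cd68, -0.11 to 0.033 for Csf1r, -0.18 to 0.11 for Kdr, -0.076 to 0.35 for S100a8, -0.16 to 0.43 for Igf1r and -0.25 to 0.10 for Ltf. Without crossing 0, they ran from -0.42 to -0.020 for Camp, 0.067 to 0.31 for Ngp, -0.64 to -0.17 for Col18a1 and 0.62 to 1.37 for S100a9. Further such ranges were -0.27 to -0.079 for Timp2, -0.25 to -0.071 for Id2, 0.17 to 0.40 for Csf1 and -0.51 to -0.11 for Cd79b. Pdgfb and Thbs1 had 43 to 87 counts per library.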

Other observations

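Some markers of other marrow cells varied widely between libraries. The neutrophil marker S100a9 was at 70.7, 30.0 and 34.0 CPM in WT libraries 1, 5 and 6 and at 50.7, 93.2 and 103 CPM in PYK2 KO libraries 2, 3 and 4, a log2 fold change of 0.85 that did not pass (adjusted p = 0.537, edgeR). It passed without a filter on low counts (adjusted p = 1.45e-10), with the first residual principal component as a covariate (adjusted p = 0.00294) and without WT library 1 (adjusted p = 0.0173), and its adjusted p-value ran from 0.0962 to 1.00 in the other fits. The fits without a filter and with the covariate called 159 and 62 genes in all, against 25 in the main fit. The other tested markers of the list lay on both sides of 0, with log2 fold changes of 1.19 for Mpo, 0.19 for Ngp, 0.10 for S100a8, -0.09 for Ltf and -0.26 for Camp, none of which passed. The neutrophil list as a whole summed to 127 to 180 CPM in WT and 133 to 229 CPM in PYK2 KO libraries, with 0 of 6 tested markers past the threshold and Mpo also at an unadjusted p-value under 0.05. Ly6c2, a marker of classical monocytes, was at 6.90, 8.68 and 10.5 CPM in WT against 13.2, 14.2 and 12.8 CPM in PYK2 KO libraries (log2 fold change 0.64, adjusted p = 0.591, edgeR). Each of its PYK2 KO values was above each WT value, as in 5.17% of all tested genes, where 10.2% did not overlap in either direction. Ccr2, of the same list, had 1 to 12 counts per library. The part of these cells in the values of Pdgfb and Thbs1 was not tested.

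Of the other marker lists, dendritic cell genes were not tested for want of counts, with Flt3, Zbtb46 and Siglech at 0. Of the B cell markers Cd79b was tested (20.1 ± 0.761 CPM in WT against 17.2 ± 5.22 CPM in PYK2 KO, SD, n = 3 mice each), and Cd79a and Ms4a1 were at 0. Of the endothelial markers, Kdr, which encodes VEGFR2, was at 7.10 ± 0.638 CPM in WT against 6.98 ± 1.34 CPM in PYK2 KO and Vwf at 87.1 ± 9.30 and 92.2 ± 2.65 CPM (SD, n = 3 mice each), whereas Tek and Emcn were at 0 and Pecam1 had at most 6 counts.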
